A study of Mus musculus with 5 samples.

Results

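Amino acid transporters are membrane proteins of the solute carrier (Slc) families that move amino acids across the plasma membrane and across the membranes of lysosomes and mitochondria. A list of 33 mouse transporter genes was taken by symbol from a count table of 55335 genes and sorted by substrate and place: 13 carriers of neutral amino acids at the plasma membrane, 6 of neutral amino acids on or linked to internal membranes, 5 cationic, 3 acidic and 5 mitochondrial carriers, and Slc3a2, the heavy chain that several of the others share. The cells were primary fibroblasts from mouse lung, kept for 24 h with TGF-β1 (5 ng/mL) in 3 libraries and with vehicle in the other 2. No genotype, strain, sex or age of the mice is stated. The libraries are described as independent biological replicates, without saying whether they came from separate animals or dishes. The spread behind every p-value is that among 5 libraries and may not be that among animals.

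The cytokine TGF-β1 signals through SMAD proteins and drives fibroblasts to make collagen, a protein rich in glycine and proline. Plasma membrane carriers work as exchangers, which swap an amino acid outside for one inside, or as sodium-driven importers and uniporters, which change the net amount in the cell. Many of their genes are known targets of ATF4, a transcription factor made when amino acids run short or the endoplasmic reticulum is stressed. Cystine taken up by the exchanger xCT feeds glutathione synthesis, and leucine and arginine brought into the cell and sensed there control the growth kinase mTOR.

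Libraries held 34283288 to 43163967 counts in all, and levels are given as counts scaled to a common total (CPM). Of the lists of cell markers, all 12 fibroblast genes were detected, of which 5 were higher and 7 lower. Among them Col1a1, a collagen chain, had a mean of 10220 CPM in the controls and 16480 CPM with TGF-β1. Pdgfra, a growth factor receptor and 1 of the 7 that fell, had means of 177 and 43.6 CPM. Other cells were also represented: 12 macrophage and leukocyte markers summed to 2828 to 2894 CPM in the controls and 1829 to 1853 CPM with TGF-β1, with 8 lower, 1 higher and 3 not passing. Mesothelial markers summed to 1621 to 1717 CPM in the controls and 287 to 312 CPM with TGF-β1, with 11 of 13 lower and 0 higher. Smooth muscle and pericyte markers summed to 2601 to 2697 CPM in the controls and 2130 to 2164 CPM with TGF-β1. Of 8 such markers 7 were tested, with 4 lower, 1 higher and 2 not passing. The 1 that rose was the pericyte marker Cspg4, from 4.31 to 47.95 CPM (adjusted p = 4.14e-09). The pericyte markers Notch3 and Kcnj8 were among the 4 that fell. The 8 endothelial and 10 epithelial markers each summed to under 6 CPM in every library, and 6 of the epithelial markers, the surfactant gene Sftpc among them, were at 0 in all 5. The part of these shifts in the transporter results was not tested, and in bulk RNA fewer cells of a type cannot be told apart from less RNA per cell. TGF-β1 replicate 3 differed more from replicates 1 and 2 (chi-square per degree of freedom 8.47 and 8.41) than those did from each other (4.06), and results that turn on it are given with and without it.

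Levels are CPM after TMM scaling, a correction for library composition, and a fold change above 1 means more with TGF-β1. The adjusted p-values are from edgeR's quasi-likelihood test over all 16380 genes that passed a low-count filter, and a gene is called at an adjusted p under 0.05. Of the 33 transporters, 31 passed the filter, which shows only that they were detectable. TGF-β1 raised 12 of these 31 (38.7%) and lowered 6 (19.4%), and 13 did not pass. Over all genes tested, 21.3% were called higher and 23.2% lower, so the share of transporters that rose lay above the background share. The members were chosen with earlier results of these data known. The shares set against all genes here therefore describe the list and are no test of it. With a filter of over 1 CPM in 2 libraries, 3503 of 13825 genes were called higher, and 12 of 31 members. The share that fell was not set apart from the background, since without TGF-β1 replicate 3 it was 8 of 31 members against 3881 of 16173 genes. In 12 members every TGF-β1 library lay above both controls and in 7 every one lay below, against 31.6% and 33% of all tested genes (64.6% for either). Against the stricter null of a 1.5-fold change, 6 members were higher (Slc7a11, Slc7a7, Slc6a9, Slc7a5, Slc1a4 and Slc7a1) and 2 were lower (Slc16a10 and Slc7a8). That was 25.8% of those tested against 10.9% of all genes, of which 3.44% were higher and 7.47% lower. Over the members the median log2 fold change was 0.03, over all genes 0.00, and the median size of change without regard to sign was 0.35 against 0.28. Scaling by library totals in place of TMM moved the median of all genes by −0.10 and the higher share of all calls from 47.9% to 32.1%, and gave 11 higher and 8 lower members. The count of higher members was 11 or 12 whichever library was left out, whereas the count of lower members was 3 without control 1, 4 without control 2, 5 without TGF-β1 replicate 1, 4 without replicate 2 and 8 without replicate 3.

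**Figure D1:**
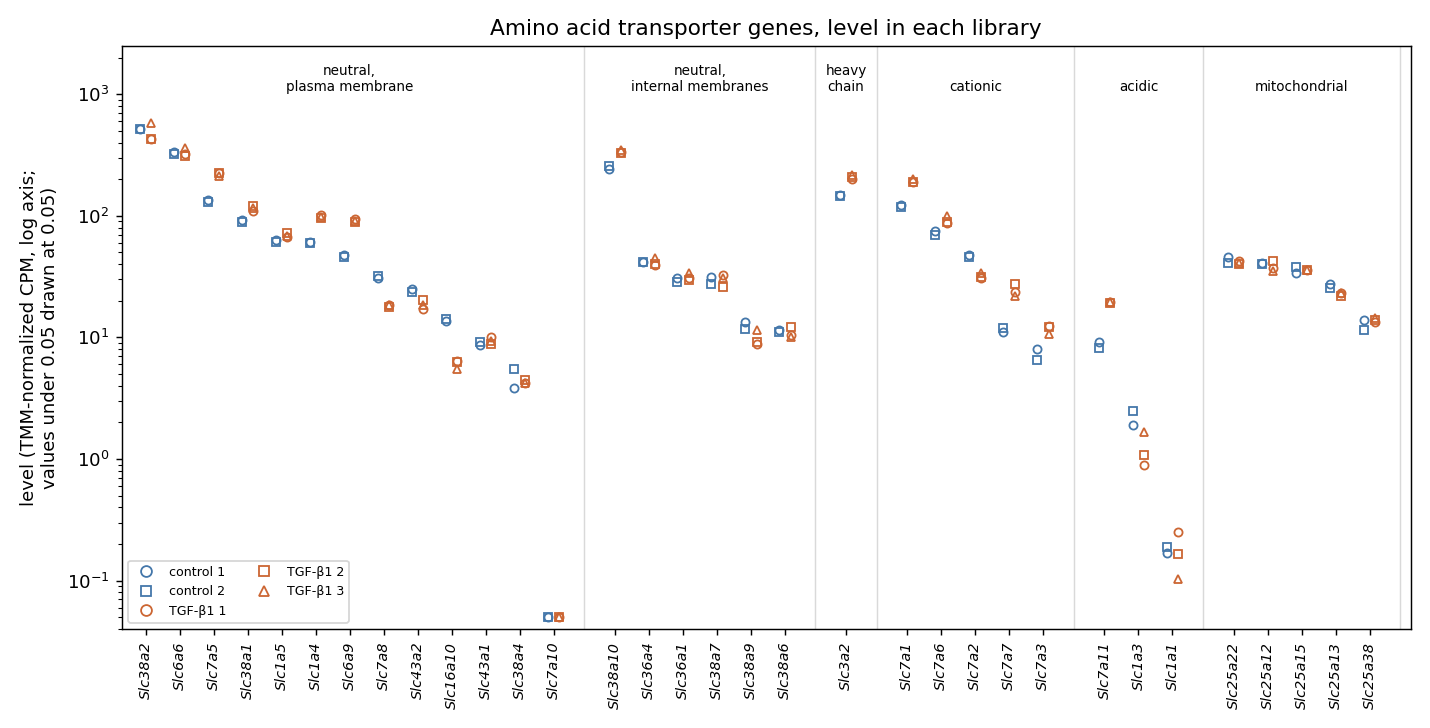
Level of each of the 33 transporter genes in each library, as TMM-normalized CPM on a log axis, grouped by class, ordered by control level and drawn at 0.05 where lower. Blue symbols are the 2 control libraries and orange symbols the 3 TGF-β1 libraries. Slc38a2 is the highest and Slc7a10 has no counts, and in Slc7a11, Slc6a9 and Slc7a5 every orange symbol sits above the blue ones.

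Compared per kilobase of exon (RPKM), which allows levels of different genes to be set side by side, the members spanned a wide range. In the controls Slc38a2, a sodium-coupled importer of small neutral amino acids, was highest with a mean of 58.6 RPKM. Next came Slc3a2 at 41.6 RPKM, Slc38a10 at 39.0, the taurine carrier Slc6a6 at 39.0 and Slc7a5 at 35.8 RPKM. The following gene, Slc7a6, stood at 15.8 RPKM. With TGF-β1, Slc7a5 (59.6 RPKM) and Slc3a2 (59.5 RPKM) had means above that of Slc38a2 (54.3 RPKM), whose libraries spread widely. With the longest transcript as the length, the same 5 genes stayed on top in the controls, with Slc3a2 in place 4 instead of 2. By that length Slc38a2 (78.4 RPKM) stayed above Slc3a2 (74.7 RPKM) and Slc7a5 (62.8 RPKM) with TGF-β1, so their order there depended on the length used.

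The large neutral exchangers split. Slc7a5, the light chain of the leucine exchanger LAT1 (ENSMUSG00000040010 on chromosome 8, 121881150 to 121907694 of GRCm38), had 135 and 130 CPM in the controls and 225, 225 and 213 CPM with TGF-β1. Every TGF-β1 library was above both controls, and the gene rose with a log2 fold change of 0.73 (SE 0.039, adjusted p = 5.56e-07). Slc7a8, the light chain of LAT2 (ENSMUSG00000022180 on chromosome 14, 54722209 to 54781946), had 31.0 and 31.8 CPM in the controls and 18.6, 17.9 and 18.5 CPM with TGF-β1. It fell, with all TGF-β1 libraries below the controls (log2 fold change −0.78, SE 0.064, adjusted p = 1.01e-05). The ratio of Slc7a5 to Slc7a8 in RPKM was 5.89 and 5.53 in the controls and 16.3, 17.0 and 15.6 with TGF-β1.

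Slc3a2, the glycoprotein CD98 that brings LAT1, LAT2, the y+L exchangers and xCT to the cell surface (ENSMUSG00000010095 on chromosome 19, 8706882 to 8723369), had 148 and 146 CPM in the controls. With TGF-β1 it had 202, 209 and 218 CPM and rose, with a log2 fold change of 0.52 (SE 0.040, adjusted p = 6.12e-06). Its light chains in the list (Slc7a5, Slc7a6, Slc7a7, Slc7a8, Slc7a10 and Slc7a11) summed to 63.0 and 61.0 RPKM in the controls and 91.9, 93.2 and 90.9 RPKM with TGF-β1. The sum of light chains over Slc3a2 was 1.51 and 1.47 in the controls and 1.60, 1.57 and 1.47 with TGF-β1, so the groups overlapped in this ratio. Slc7a5 made up 57.6% to 58.0% of the summed light chains in the controls and 63.2% to 66.1% with TGF-β1.

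**Figure D2:**
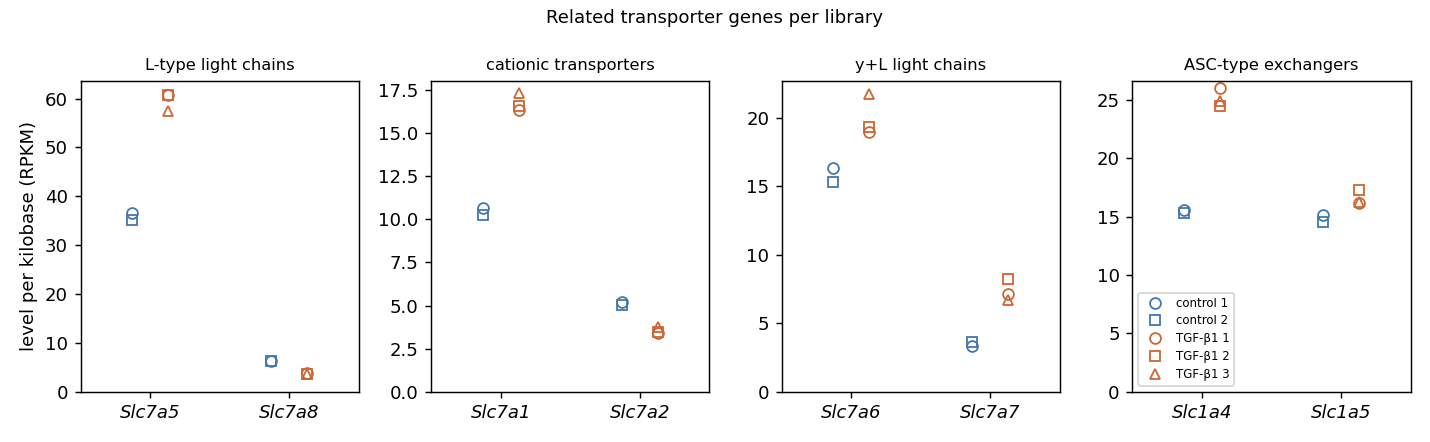
Level per kilobase (RPKM, linear axis from 0) of 4 pairs of related transporter genes in each of the 2 control (blue) and 3 TGF-β1 (orange) libraries. In the pairs Slc7a5 with Slc7a8 and Slc7a1 with Slc7a2, the more abundant gene is higher and the scarcer gene lower in every TGF-β1 library than in either control.

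The other neutral facilitators were lower or did not pass. Slc16a10, the uniporter TAT1 for aromatic amino acids (ENSMUSG00000019838 on chromosome 10, 40033532 to 40142258), had 13.6 and 14.1 CPM in the controls and 6.34, 6.28 and 5.46 CPM with TGF-β1. It showed the largest decrease among the tested members, 2.29-fold (log2 fold change −1.20, SE 0.11, adjusted p = 2.27e-05). Slc43a2, the leucine uniporter LAT4, went from 24.9 and 23.5 CPM to 17.1, 20.4 and 18.5 CPM and fell 1.296-fold (adjusted p = 0.00689), a call lost without control 1 (adjusted p = 0.0706). Slc43a1, which encodes the related LAT3, had 8.74 and 9.23 CPM in the controls and 10.02, 8.78 and 9.28 CPM with TGF-β1, so its groups overlapped (log2 fold change 0.06, SE 0.11, adjusted p = 0.702).

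Sodium-coupled carriers of glycine, alanine and serine were next. Slc6a9, the sodium- and chloride-coupled glycine importer GlyT1 (ENSMUSG00000028542 on chromosome 4, 117834506 to 117875198), had 47.3 and 45.6 CPM in the controls and 94.5, 89.2 and 90.4 CPM with TGF-β1. It rose 1.97-fold (log2 fold change 0.98, SE 0.049, adjusted p = 3.42e-07). Its exons overlap those of Ccdc24 and, by 46 bases, of B4galt2 on the opposite strand, and B4galt2 went from 45.4 to 51.9 CPM. Without knowledge of the strand setting, reads over those shared bases cannot be assigned.

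Slc1a4, the sodium-dependent exchanger ASCT1 for alanine, serine and cysteine (ENSMUSG00000020142 on chromosome 11, 20302180 to 20332713), had 61.1 and 60.3 CPM in the controls and 102, 96.0 and 97.7 CPM with TGF-β1. It rose, with a log2 fold change of 0.70 (SE 0.046, adjusted p = 2.27e-06). The related gene Slc1a5, which encodes the glutamine exchanger ASCT2, had 63.2 and 60.8 CPM in the controls and 67.6, 72.3 and 67.9 CPM with TGF-β1. That was a rise of 1.12-fold (log2 fold change 0.16, SE 0.051, adjusted p = 0.0275). The call was lost without control 1 (adjusted p = 0.0682), control 2 (0.172) or TGF-β1 replicate 2 (0.0827), with library totals in place of TMM (0.357) and with no low-count filter (0.0513). The ratio of Slc1a4 to Slc1a5 in RPKM was 1.03 and 1.06 in the controls and 1.61, 1.41 and 1.53 with TGF-β1. With the longest transcript as the length it was 0.692 and 0.709 in the controls, so which of the pair was more abundant depended on the length used.

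The sodium-coupled SNAT importers differed among themselves. Slc38a1 (SNAT1, a glutamine importer) had 92.1 and 88.9 CPM in the controls and 109.6, 120.2 and 117 CPM with TGF-β1, a rise of 1.27-fold (SE 0.049 on the log2 scale, adjusted p = 0.000334). Slc38a2 (SNAT2, whose message is known to increase when cells are deprived of amino acids; ENSMUSG00000022462 on chromosome 15, 96687392 to 96699730) had 518 and 518 CPM in the controls. With TGF-β1 it had 431, 430 and 578 CPM, so replicates 1 and 2 lay below the controls and replicate 3 above them. Over all libraries it did not pass (log2 fold change −0.11, SE 0.11, adjusted p = 0.449), and without replicate 3 it was called lower (log2 fold change −0.27, adjusted p = 4.96e-06). Slc38a4, a SNAT that also takes cationic amino acids, had 3.85 and 5.54 CPM in the controls and 4.24 to 4.45 CPM with TGF-β1 (adjusted p = 0.606). Slc6a6, the importer of taurine, a sulfonic amino acid that is not built into protein, had 336 and 324 CPM in the controls and 320, 309 and 361 CPM with TGF-β1 (log2 fold change 0.00, SE 0.059, adjusted p = 0.975). Slc7a10, a serine and alanine exchanger best known from brain, had 0 counts in all 5 libraries, where a count of 0 allows up to 3 counts, or 0.0713 to 0.0842 CPM. That limit covers counting error only.

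Among carriers on internal membranes, 1 of 6 was called, against 44.5% of all genes tested. Slc38a10, a SNAT family protein found inside the cell (ENSMUSG00000061306 on chromosome 11, 120103960 to 120151346), had 244 and 257 CPM in the controls and 335, 329 and 352 CPM with TGF-β1. It rose 1.35-fold (log2 fold change 0.44, SE 0.038, adjusted p = 1.58e-05). Slc38a9, the lysosomal arginine sensor that signals to mTOR, had 13.3 and 11.7 CPM in the controls and 8.78, 9.12 and 11.5 CPM with TGF-β1. All TGF-β1 libraries were below both controls, yet it did not pass (log2 fold change −0.35, SE 0.14, adjusted p = 0.0623), and it was called lower without TGF-β1 replicate 3 (adjusted p = 0.00483) and with library totals (0.0225).

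The remaining internal carriers overlapped between groups and did not pass. Slc36a1, a proton-coupled exporter of small neutral amino acids from lysosomes, had 28.5 to 30.8 CPM in the controls and 29.5 to 33.6 CPM with TGF-β1. Slc36a4, its high-affinity relative, had 41.4 to 41.7 and 39.7 to 44.9 CPM, and Slc38a7, a lysosomal exporter of glutamine, had 27.3 to 31.3 and 26.2 to 32.5 CPM. Slc38a6, another SNAT relative, had 10.99 to 11.43 and 10.1 to 12.1 CPM. It is uncertain, as annotated transcripts of Slc38a6 hold long stretches at least 95% identical to parts of other expressed genes, Noct and Rab3gap1 among them.

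Of the 5 cationic carriers, 4 rose and 1 fell, against 21.3% of all genes higher and 23.2% lower. Slc7a1, the main arginine and lysine uniporter CAT1 of growing cells (ENSMUSG00000041313 on chromosome 5, 148327410 to 148399904), had 123 and 119 CPM in the controls and 189, 191 and 200 CPM with TGF-β1. It rose 1.60-fold (log2 fold change 0.68, SE 0.040, adjusted p = 9.69e-07). Slc7a2, the inducible CAT2 (ENSMUSG00000031596 on chromosome 8, 40862396 to 40922308), had 47.4 and 46.1 CPM in the controls and 31.0, 31.7 and 34.1 CPM with TGF-β1. It fell 1.45-fold (log2 fold change −0.54, SE 0.058, adjusted p = 6.72e-05). The ratio of Slc7a1 to Slc7a2 in RPKM was 2.05 and 2.04 in the controls and 4.65 to 4.83 with TGF-β1. Slc7a3, the related CAT3, had 8.03 and 6.54 CPM in the controls and rose to 12.4, 12.1 and 10.6 CPM, 1.61-fold (SE 0.13 on the log2 scale, adjusted p = 0.00205).

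The y+L light chains, which pair with Slc3a2 and export cationic amino acids in exchange for neutral ones and sodium, both rose. Slc7a7 (ENSMUSG00000000958 on chromosome 14, 54369442 to 54417780) had 11.01 and 11.94 CPM in the controls and 23.6, 27.3 and 22.1 CPM with TGF-β1. It rose 2.12-fold (log2 fold change 1.09, SE 0.11, adjusted p = 3.14e-05). Slc7a7 is also known from macrophages. Most macrophage and leukocyte markers were lower with TGF-β1, with 8 of 12 lower, 1 (Ptprc) higher and 3 not passing. The part of these cells in the level of Slc7a7 was not tested. Its exons share 232 bases with Oxa1l on the opposite strand, a gene at 36.0 CPM in the controls and 33.6 CPM with TGF-β1, so its level is uncertain. Slc7a6, the more abundant y+L chain, had 74.5 and 69.9 CPM in the controls and 86.6, 88.3 and 99.4 CPM with TGF-β1, a rise of 1.27-fold (adjusted p = 0.0023). The ratio of Slc7a7 to Slc7a6 in RPKM was 0.204 and 0.235 in the controls and 0.376, 0.427 and 0.307 with TGF-β1.

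Acidic transport held the largest increase among the tested members. Slc7a11, the xCT light chain that takes up cystine in exchange for glutamate (ENSMUSG00000027737 on chromosome 3, 49892526 to 50443614), had 9.21 and 8.13 CPM in the controls and 19.4, 19.0 and 19.6 CPM with TGF-β1. It rose 2.23-fold (log2 fold change 1.16, SE 0.092, adjusted p = 7.62e-06), with the TGF-β1 libraries close together. Slc1a3, the glial glutamate importer EAAT1, was scarce, with 1.91 and 2.47 CPM in the controls and 0.895, 1.07 and 1.68 CPM with TGF-β1. It fell 1.81-fold (log2 fold change −0.85, SE 0.30, adjusted p = 0.0455). That call was lost without control 1 (adjusted p = 0.0806), control 2 (0.268), TGF-β1 replicate 1 (0.122) or replicate 2 (0.12), by DESeq2 (0.0672) and with no low-count filter (0.0858). Slc1a1, the glutamate importer EAAT3, had 4 to 10 counts per library and was not tested, and it shares 2631 bases of exon with the gene 4430402I18Rik.

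Of the mitochondrial carriers, 0 of 5 were called higher and 1 lower, against 21.3% and 23.2% of all genes. The share that fell lay near that background. Slc25a13, the aspartate and glutamate carrier citrin, had 27.3 and 25.5 CPM in the controls and 23.0, 21.8 and 23.2 CPM with TGF-β1. The 1.17-fold decrease (log2 fold change −0.22, SE 0.068, adjusted p = 0.0259) was called. The call was lost without control 1 (adjusted p = 0.181), control 2 (0.0513) or TGF-β1 replicate 2 (0.0918). Its paralog Slc25a12 (aralar) had 40.2 to 40.8 CPM in the controls and 35.3 to 42.3 CPM with TGF-β1 and did not pass. Neither did Slc25a15, the ornithine carrier (33.9 to 37.7 and 35.7 to 35.9 CPM), Slc25a22, a glutamate carrier (41.3 to 45.7 and 39.9 to 42.5 CPM), or Slc25a38, a glycine carrier needed for heme synthesis (11.6 to 14.0 and 13.5 to 14.5 CPM). Slc25a22 was called lower with library totals (log2 fold change −0.18, adjusted p = 0.0333). Summed over the class, mitochondrial carriers stood at 156 to 162 CPM in the controls and 149 to 154 CPM with TGF-β1. The cationic class summed to 253 to 264 and 342 to 366 CPM, and all 33 members to 2255 to 2291 and 2580 to 2818 CPM.

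**Figure D3:**
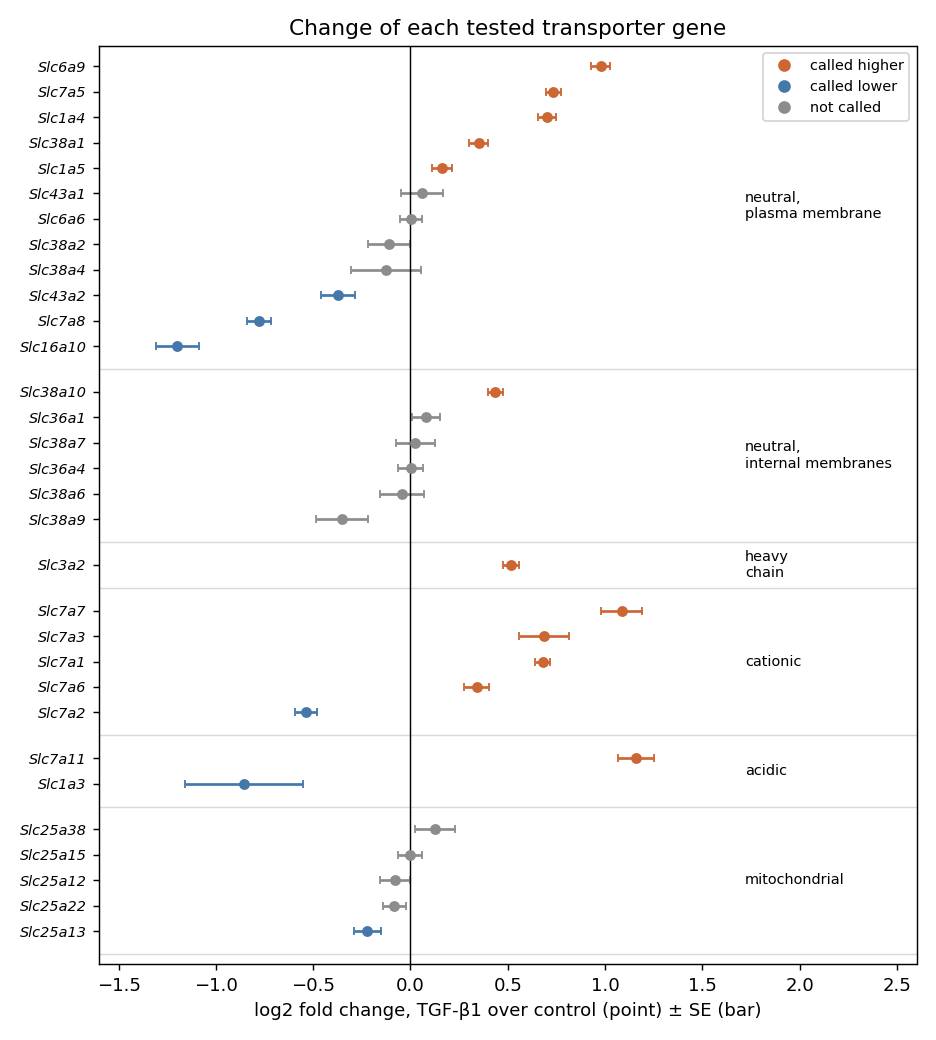
Log2 fold change of TGF-β1 over control with its SE for the 31 tested transporter genes, grouped by class. Orange points were called higher (12), blue points lower (6) and grey points were not called (13). The cationic class lies to the right of 0 except for Slc7a2, and the mitochondrial class lies close to 0.

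ATF4 binds, with C/EBP partners, a C/EBP-ATF element with the core TGATGNAA, and the promoters of the members were searched for it. RefSeq promoter windows (GRCm38.p6, 250 bases before to 50 after the start) were found for 27 members, 8 of them called higher. Slc1a5, Slc6a6, Slc7a2, Slc7a3, Slc7a5 and Slc38a1 had no window. On either strand the core was present in Slc7a11, Slc1a4 and Slc7a7, all called higher, and each of these held the form TGATGCAA. Of all 32851 windows, 3.97% held the core and 0.895% that form. By gene, 2.86% of the tested genes with a window held the core and 0.755% that form, against 3 of 27 members for each. Members and patterns were chosen with earlier results of these data known, so these shares are descriptions and no test. The stretches from 150 bases before to 10 after the start are printed because these are the members that hold the core, all on the minus strand, with the core in capitals.
Slc7a11 (chr3:50443604-50443763): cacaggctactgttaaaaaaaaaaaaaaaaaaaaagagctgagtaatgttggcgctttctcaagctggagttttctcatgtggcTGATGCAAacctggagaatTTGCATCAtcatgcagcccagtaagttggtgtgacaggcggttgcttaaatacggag
Slc1a4 (chr11:20332704-20332863): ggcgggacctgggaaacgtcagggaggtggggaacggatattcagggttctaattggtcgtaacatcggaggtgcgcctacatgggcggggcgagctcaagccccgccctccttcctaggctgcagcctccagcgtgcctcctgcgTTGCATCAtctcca
Slc7a7 (chr14:54417935-54418094): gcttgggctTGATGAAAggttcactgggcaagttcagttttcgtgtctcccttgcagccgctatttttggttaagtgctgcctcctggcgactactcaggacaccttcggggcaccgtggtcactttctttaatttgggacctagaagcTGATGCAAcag

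In Slc7a11 a pair of cores lay on opposite strands, with their first bases 66 and 47 bases upstream of the start. In Slc1a4 and Slc7a7 a copy spanned the start itself, and Slc7a7 held a second core 141 bases upstream. RefSeq gives several starts for Slc7a7, and the printed stretch belongs to the outermost. The E-box CACGTG, bound by MYC and related factors, was in 5 members (Slc25a13, Slc25a15, Slc36a1, Slc38a7 and Slc43a1), of which 0 were called higher, against 7.15% of all windows and 11.4% of tested genes with a window. The antioxidant response core TGACNNNGC, bound by NRF2, was in 7 members, 3 of them called higher, against 12.4% of windows and 16.8% of those genes (Slc25a38, Slc36a1, Slc38a2, Slc43a1, Slc6a9, Slc7a1 and Slc7a6). The SMAD-type CAGACA was in 2 members (Slc38a4 and Slc7a7), against 6913 of the 32851 windows and 19.5% of those genes, and the SMAD palindrome GTCTAGAC was in 0 (0.213% of windows and 0.293% of those genes). Longer forms of the first core, TGATGNAAN and ATTGCATCA, were in the same 3 members and in 0. Both strands were searched for every pattern, and TGATGCAA, TGATGNAAN and ATTGCATCA overlap TGATGNAA. These matches are descriptions of letters in a window and say nothing of binding.

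Genes known to control transporters changed in both directions. Of these 16 genes 8 rose, 6 fell (37.5%) and 2 did not pass, against 21.3% of all genes higher and 23.2% lower. Without control 1, and likewise without control 2, 5 were higher. Trib3, a pseudokinase induced by ATF4, had 32.0 and 31.9 CPM in the controls and 75.1, 77.6 and 50.5 CPM with TGF-β1 and rose (log2 fold change 1.09, SE 0.16, adjusted p = 0.000474). Myc, a transcription factor known to drive LAT1 and ASCT2, had 30.4 and 30.6 CPM in the controls and 60.0, 61.2 and 35.9 CPM with TGF-β1 (log2 fold change 0.78, SE 0.19, adjusted p = 0.00923), a call lost without control 1 (adjusted p = 0.0788) or control 2 (0.0742). Mycn, its relative, fell from 10.6 ± 0.172 CPM (SD, n = 2) to 1.37 ± 0.339 CPM (SD, n = 3), 7.75-fold by edgeR (adjusted p = 1.68e-06). Sgk1, a kinase known to raise the surface level of several carriers, rose from 77.1 ± 4.20 to 134 ± 19.4 CPM, or 0.79 on the log2 scale (adjusted p = 0.000195). Cebpb, a C/EBP factor, fell from 231 ± 0.865 to 160.5 ± 18.1 CPM, or −0.52 on the log2 scale (adjusted p = 0.000377).

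TGF-β1 replicate 3 lay between the controls and the other TGF-β1 libraries in several of these regulators, though not in all. Atf4, Ddit3 and Cebpg were picked after their values were seen. Atf4 had 228 and 217 CPM in the controls and 329, 334 and 262 CPM with TGF-β1, with replicate 3 the lowest of the treated libraries. Ddit3 (CHOP, a stress factor downstream of ATF4) had 29.2 and 28.3 CPM in the controls and 44.3, 43.3 and 29.8 CPM with TGF-β1, and its call (adjusted p = 0.0344) was lost without control 1 (0.141), control 2 (0.175), TGF-β1 replicate 1 (0.0806) or replicate 2 (0.0987). It was also lost by DESeq2 (0.11) and limma-voom (0.0535), with library totals (0.0849) and with no low-count filter (0.0953). Against the mean of replicates 1 and 2, replicate 3 was lower by a log2 difference of −0.75 in Myc, −0.59 in Trib3, −0.55 in Ddit3 and −0.34 in Atf4. It was higher by 0.42 in Slc38a2 and 0.35 in Slc38a9. In the regulator Sgk1 it was also higher, by 0.35, and so lay further from the controls. In Hif1a, another regulator, it differed by 0.01. Of 10928 tested genes with a mean of at least 5 CPM, 2.20% differed as far as Slc38a2 and 0.897% as far as Trib3. Slc7a11, Slc7a5 and Slc3a2 differed between replicate 3 and the others by log2 values of 0.03, −0.08 and 0.08.

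**Figure D4:**
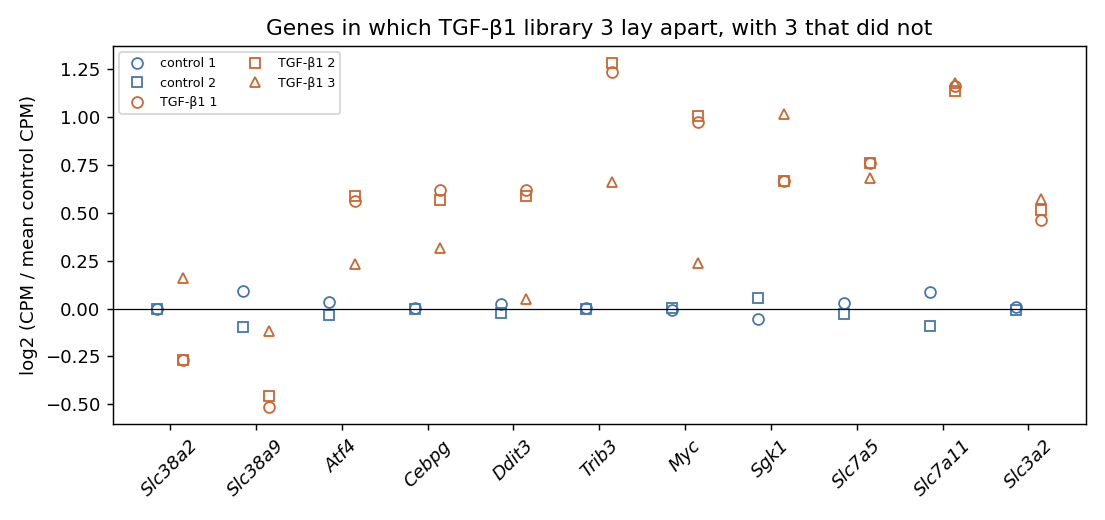
Log2 of each library's CPM over the mean of the controls for Slc38a2, Slc38a9, 6 regulators and 3 transporters for comparison. TGF-β1 replicate 3 (orange triangles) lies above the other TGF-β1 libraries in Slc38a2, Slc38a9 and Sgk1 and below them in Atf4, Cebpg, Ddit3, Trib3 and Myc, and lies with them in Slc7a5, Slc7a11 and Slc3a2.

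Amino acid sensors around mTOR and the kinase GCN2 were also examined. Among 30 such genes 5 rose (16.7%, against 21.3% of all genes), 6 fell (against 23.2%) and 19 did not pass. Over all 5 libraries neither share exceeded the background, and the median log2 fold change was 0.01. Without TGF-β1 replicate 3 the numbers were 6 and 8, against 3623 and 3881 of 16173 genes. The share that fell then lay slightly above the background. The calls gained were Sesn2, higher (log2 fold change 0.40, adjusted p = 1.8e-05), and Flcn (−0.30, 0.0128) and Fnip2 (−0.37, 0.00538), both lower. Sesn2 had 73.0 and 72.2 CPM in the controls and 93.9, 97.6 and 72.0 CPM with TGF-β1. It did not pass over all 5 libraries (adjusted p = 0.0705), nor did Flcn or Fnip2. With library totals the numbers of genes higher and lower were 2 and 7. Sesn1, a leucine-responsive inhibitor of mTOR signalling, had 31.4 and 33.2 CPM in the controls and 16.6, 16.8 and 16.0 CPM with TGF-β1, a fall with a log2 fold change of −0.97 (SE 0.067, adjusted p = 3.09e-06). Its relative Sesn3 had 76.0 ± 0.206 CPM in the controls and fell to 51.0 ± 3.12 CPM, or −0.58 on the log2 scale (adjusted p = 3.56e-05). Lamtor4, a subunit of the lysosomal scaffold for mTOR, fell from 24.0 ± 0.760 to 17.5 ± 1.77 CPM, or −0.45 on the log2 scale (adjusted p = 0.00327), and Depdc5, of a complex that holds mTOR in check, fell from 25.8 ± 1.51 to 21.4 ± 1.51 CPM, or −0.27 on the log2 scale. The Depdc5 call (adjusted p = 0.0219) was lost without control 2 (0.176), TGF-β1 replicate 1 (0.0687) or replicate 2 (0.056). Sec13, which serves both this sensing machinery and vesicle export, rose from 114 ± 6.19 to 156 ± 7.201 CPM, or 0.45 on the log2 scale (adjusted p = 8.84e-05).

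A further 44 amino acid transporter genes outside the 33 were also examined. Of them 19 passed the low-count filter and 14 had 0 counts in every library. Of the 19, 4 rose (21.05%), 5 fell (26.3%) and 10 did not pass, near the shares of 21.3% and 23.2% over all genes. Without control 1 the numbers were 2 higher and 3 lower, with library totals 2 and 7, and by DESeq2 4 and 3. Slc1a6, a glutamate importer best known from cerebellum, had 20.5 and 20.9 CPM in the controls and fell to 9.35, 10.1 and 11.4 CPM (log2 fold change −1.01, SE 0.10, adjusted p = 3.5e-05). Slc7a4, a relative of the cationic carriers, fell from 8.15 ± 0.356 to 4.59 ± 0.727 CPM, or −0.82 on the log2 scale (adjusted p = 0.00201). Sfxn1, the mitochondrial serine carrier, rose from 43.9 ± 1.59 to 58.1 ± 1.68 CPM, or 0.40 on the log2 scale (SE 0.052, adjusted p = 0.000204). Slc6a17, a vesicular carrier of neutral amino acids, rose from 30.7 ± 3.75 to 38.4 ± 3.39 CPM, a call (adjusted p = 0.019) lost without control 1 (0.18), with library totals (0.084) and with no low-count filter (0.0539). Pqlc2, a lysosomal exporter of cationic amino acids, rose from 10.8 ± 0.474 to 13.4 ± 0.501 CPM (adjusted p = 0.0232), and its call was lost without control 1 (0.128), control 2 (0.0616), TGF-β1 replicate 1 (0.0552) or replicate 2 (0.069), and with library totals (0.101).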

How the data were processed

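Gene counts, whole numbers, were deposited by the authors in 1 table for 5 polyA libraries, made with a stranded kit per the labels. The submitters' processing notes name STAR 2.5.3a, StringTie 1.3.1c and the mouse build mm10, with no roles. The counting tool, strand setting and annotation were not given in the sources used here, and overlapping and near-identical genes are therefore uncertain.

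Names and coordinates came from GENCODE M21 (GRCm38) by gene ID, and 181 IDs of 55335 had no entry. Samples and columns were matched by title. Genes were filtered with filterByExpr, scaled with TMM and tested with edgeR 4.0.16 (R 4.3.3) quasi-likelihood tests (two-sided, group as the only term), and p-values were adjusted by Benjamini-Hochberg over 16380 genes (threshold 0.05). SE was the log2 fold change over the square root of F. With 2 and 3 libraries the smallest exact permutation p is 0.1. CPM are counts over the TMM-scaled library total, and RPKM divides these by all annotated exon bases in kilobases. The log2 difference of replicate 3 used a pseudocount of 0.5 CPM. Transcripts were compared with BLAST 2.17.0. The model was also run on counts simulated from its own fitted means and dispersions, which cannot show how well it suits these libraries. Alternatives used DESeq2 1.42.0, limma 3.58.1, other scalings and filters, the replicate block and leaving out each library, where a control left alone is taken to vary as the TGF-β1 libraries do. RPKM with the longest transcript, and list counts without TGF-β1 replicate 3, were chosen after seeing the data.

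All 33 members are described, and from each other list (markers aside) up to 5 called genes averaging 5 CPM or more, by size of change. Sesn2, Flcn and Fnip2 were added because their calls turned on TGF-β1 replicate 3. Members, lists and promoter patterns were chosen with earlier results of these data known.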

Additional observations from a re-analysis of the deposited data

How the results depend on the processing

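Alternatives were other scalings, filters and tools, the replicate block, leaving out each library and, apart from these, a null of 1.5-fold. Of the 18 called members, 14 kept their call and direction under all 13 alternatives other than that null, and Slc1a5, Slc43a2, Slc1a3 and Slc25a13 lost theirs under at least 1. The null of 1.5-fold gave 6 members higher and 2 lower, and 563 and 1223 of all genes, since it asks for a larger change. Library totals gave 2325 genes higher. Leaving out 1 library gave 11 to 12 members higher and 3 to 8 lower, and 2620 to 3623 of all genes higher and 2813 to 3881 lower. The replicate block gave 12 members higher and 8 lower, with Slc38a2 (log2 fold change −0.27) and Slc38a9 called lower. Deviations of same-numbered libraries had correlations of 0.003 and 0.0096 over 2 pairs. With 2 controls the deviations mirror each other, so these values cannot settle whether libraries were paired. TGF-β1 replicate 3 has no control partner, so the block removes it. Signs changed in 9 uncalled members, and the cause was not tested. Their log2 fold changes with TMM over all libraries ran from −0.13 (Slc38a4) to 0.13 (Slc25a38). With library totals the members that changed sign were Slc6a6 (−0.097), Slc43a1 (−0.041), Slc36a1 (−0.018), Slc36a4 (−0.098) and Slc38a7 (−0.074). With the replicate block they were Slc6a6 (−0.067), Slc36a4 (−0.057), Slc38a6 (0.0073), Slc38a7 (−0.0045) and Slc25a15 (0.0017). With upper-quartile scaling they were Slc6a6 (−0.0056) and Slc36a4 (−0.0074), and with limma-voom Slc6a6 (−0.00083) and Slc36a4 (−0.0022). With no low-count filter Slc36a4 was at −0.00053. Slc25a15 was at 0.00058 with RLE scaling, 0.0016 with a filter of over 1 CPM and 0.00042 by DESeq2. Leaving out 1 library moved Slc6a6 from −0.067 to 0.053, Slc38a4 from −0.36 to 0.17, Slc36a4 from −0.056 to 0.040, Slc38a6 from −0.13 to 0.010, Slc38a7 from −0.072 to 0.13, Slc25a15 from −0.074 to 0.078 and Slc25a38 from −0.0027 to 0.26. Slc1a1, with 4 to 10 counts per library, was too scarce to test, and Slc7a10 had 0 counts.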
